A study of Mus musculus with 4 samples.

Results

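The milk protein genes are 10 mouse genes for the caseins, the whey proteins and the proteins of the milk fat globule membrane: Csn1s1, Csn1s2a, Csn1s2b, Csn2, Csn3, Wap, Lalba, Glycam1, Btn1a1 and Mfge8. They were chosen by name, and every probe set with one of these as its single gene symbol in the platform annotation was taken. All 10 genes were measured, by 18 probe sets among 45037, with array control rows left out. Expression was measured in 4 samples of mouse mammary basal epithelial cells, on one-colour Affymetrix arrays. The cells came from virgin female CD1 mice 8 to 12 weeks old, with no transgene named. Sorting kept lineage-negative cells that were positive for CD24 and high for CD29, where mammary stem cells are enriched, and the cells formed colonies within Matrigel, a gel of basement membrane proteins. The Wnt3A group (2 arrays, Wnt3A 1 and Wnt3A 2) received 200 ng/ml purified Wnt3A, a secreted activator of canonical Wnt signalling. The control group (2 arrays, Control 1 and Control 2) received vehicle, CHAPS in PBS, in its place (some labels write "vesicle"). All colonies received 50 ng/ml EGF and insulin, transferrin and selenium, and passage 2 colonies were lysed for RNA at 6 to 7 days. No lactogenic hormone other than this insulin is named in the culture protocol. The labels do not say whether arrays of one group came from separate mice or cultures, so each p-value reflects only how far these 4 samples spread, and that spread may be technical.

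Milk proteins are made by the alveolar luminal cells of the mammary gland in pregnancy and lactation. Prolactin acts through its receptor, the kinase JAK2 and the transcription factor STAT5, together with glucocorticoid and the luminal factor Elf5, to switch the genes on, and contact with basement membrane is needed for full expression in culture. The caseins are phosphoproteins that carry calcium in micelles. Basal cells, the population sorted here, form the contractile outer layer of the gland and are not its milk-producing cells.

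The 5 casein genes lie near each other on chromosome 5 in the order Csn1s1, Csn2, Csn1s2a, Csn1s2b and Csn3. The RefSeq promoter table (build GRCm38.p6) held 7 of the 10 genes, and the 250 bases before the start were searched for TTCNNNGAA, a palindrome that STAT factors bind. It was found before 3 of these 7 genes, Csn1s1, Csn2 and Glycam1, and in 7.0% of the 32851 promoters in the table. The Csn1s1 and Csn2 windows are shown because these neighbouring genes both hold the motif but had very different ranges over the arrays. They are chr5:87665958-87666207 on the plus strand for Csn1s1 and chr5:87699426-87699675 on the minus strand for Csn2, and capitals mark the match.
Csn1s1: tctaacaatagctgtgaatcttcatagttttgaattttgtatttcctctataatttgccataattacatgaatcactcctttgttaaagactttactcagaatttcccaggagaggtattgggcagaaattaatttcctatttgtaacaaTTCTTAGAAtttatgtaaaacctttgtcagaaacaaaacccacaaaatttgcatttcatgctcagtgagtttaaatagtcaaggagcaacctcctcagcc
Csn2: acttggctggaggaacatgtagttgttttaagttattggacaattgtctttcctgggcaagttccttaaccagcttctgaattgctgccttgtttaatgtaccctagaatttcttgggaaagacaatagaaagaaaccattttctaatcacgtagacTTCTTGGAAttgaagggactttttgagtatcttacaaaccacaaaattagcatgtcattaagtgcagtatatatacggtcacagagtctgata
Counted back from the base before the start (-1), the match spans -100 to -92 in Csn1s1 and -93 to -85 in Csn2. The Wnt effectors TCF and LEF bind motifs of the form CTTTG with 2 further bases, each A or T. One of these, on either strand, was found before 4 of the 7 genes (Csn1s1, Csn1s2a, Wap and Glycam1) and in 14.8% of all promoters. A match is a description of letters and not evidence of binding.

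Every value below is a log2 difference from the median of the same probe set over the 4 arrays, because the deposited values had been centred in this way. Levels of different genes can therefore not be compared. A coarse bound on the level was read from the step size of the stored numbers, which depends on whether the lowest of the 4 arrays lay at log2 8 to 16, 4 to 8 or below 4. Of the 18 milk protein probe sets, 3 were read in the highest band, 6 in the middle band and 9 in the lowest, against 33.8%, 47.2% and 19.0% of all probe sets. The 3 in the highest band measure Mfge8, Btn1a1 (1451824_at) and Csn1s2a (1436170_a_at). All other Csn1s2a probe sets, Btn1a1 1425754_a_at, Csn3 1451851_a_at, both Csn2 probe sets and the Csn1s2b probe set were in the lowest band. Counted by gene, with the highest band of any probe set, 3 of the 10 milk protein genes were in the highest band and 2 in the lowest, against 49.9% and 10.9% of all genes. The highest band held 16 of 18 basal and myoepithelial markers, among them Krt5, Krt14, Trp63 and Acta2, and 12 of 16 luminal markers, among them Krt8 and Krt18. It also held 2 of 9 leukocyte markers, 2 of 7 adipocyte markers, 2 of 10 endothelial markers and 1 of 9 fibroblast markers. In the lowest band were 2 leukocyte markers, the sort marker Ptprc among them, 2 endothelial markers, 1 fibroblast marker and 1 adipocyte marker, Adipoq.

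Of the 10 genes, 5 had a probe set that spanned at least 1 log2 unit over the 4 arrays: Csn1s1, Csn3, Lalba, Btn1a1 and, narrowly, Csn2. In all 5 the arrays stood in the same order, with Control 1 highest, then Wnt3A 1, then Control 2 and then Wnt3A 2. The arrays numbered 2 were thus below the arrays numbered 1 in both groups, and the Wnt3A array was below the control array of the same number. The other 5 genes spanned at most 0.68 log2 units in any probe set. No milk protein probe set passed the test for Wnt3A or for the array number.

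**Figure D1:**
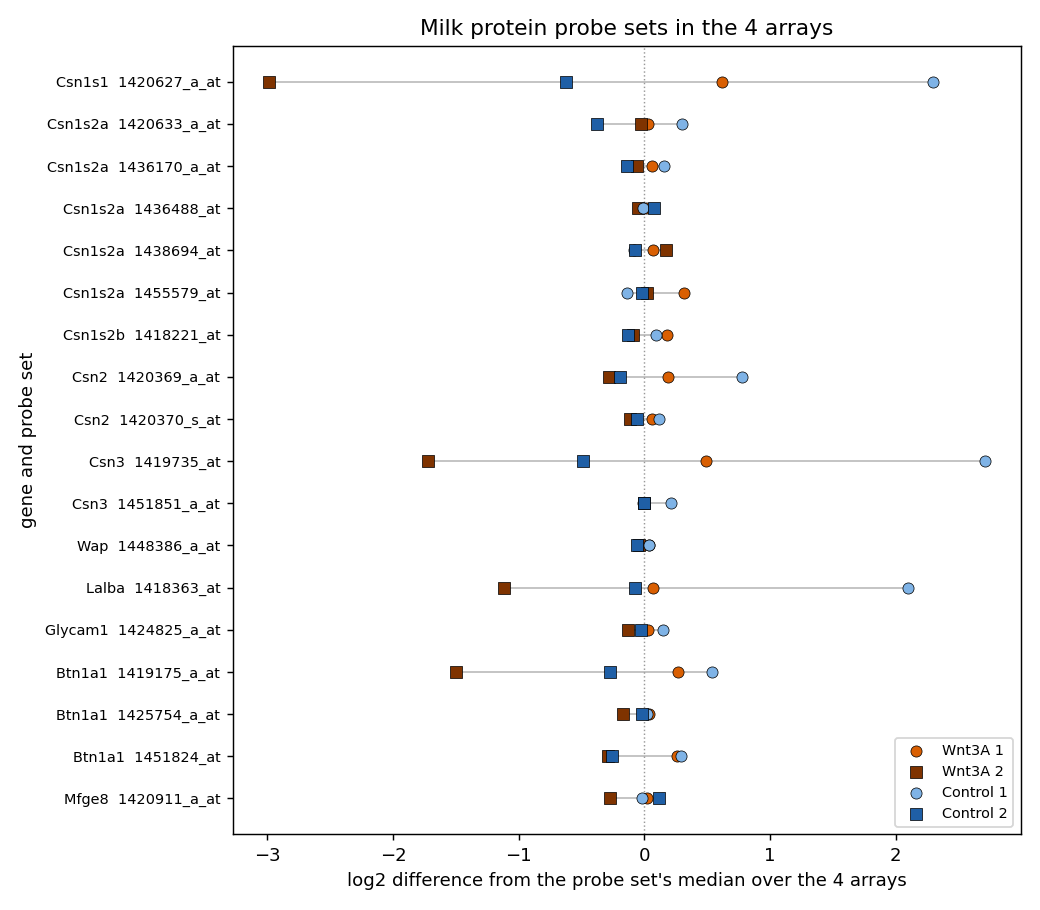
Values of the 18 milk protein probe sets in the 4 arrays, as log2 differences from the median of that row (x axis), with 1 row per probe set, Wnt3A arrays in orange and brown, control arrays in light and dark blue, and a grey line over the range. Csn1s1, Csn3, Lalba and 1 Btn1a1 probe set spread over 2.05 to 5.29 log2 units with Control 1 at the right and Wnt3A 2 at the left, and most other rows stay close to 0.

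Csn1s1 encodes alpha-S1-casein, a main calcium-binding casein, and varied most. Its probe set 1420627_a_at was at 0.62 in Wnt3A 1 and -2.99 in Wnt3A 2, against 2.30 in Control 1 and -0.62 in Control 2. The groups overlapped, since Wnt3A 1 was above Control 2, and the highest array was 39-fold above the lowest. The mean was 2.03 ± 1.59 log2 units (SE) lower with Wnt3A, or 4.07-fold (limma adjusted p = 0.951, 95% interval -6.31 to 2.26). Between the numbers the arrays did not overlap: those numbered 2 differed from those numbered 1 by -3.26 ± 1.00 log2 units, or 9.58-fold lower (limma adjusted p = 0.374).

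Csn3 encodes kappa-casein, the casein that coats and stabilises the micelle, and lies at the far end of the casein region. Its probe set 1419735_at was at 0.49 in Wnt3A 1 and -1.72 in Wnt3A 2, against 2.71 in Control 1 and -0.49 in Control 2, a 21.6-fold span. Again Wnt3A 1 lay above Control 2, so the groups overlapped. The Wnt3A mean was lower by 1.73 ± 1.33 log2 units (SE; limma adjusted p = 0.950), and the mean of the arrays numbered 2 was lower by 2.70 ± 0.87 (limma adjusted p = 0.386). The other Csn3 probe set, 1451851_a_at, read in the lowest band, did not follow: it was at -0.01 and 0.00 in the Wnt3A arrays and at 0.21 and 0.00 in the controls.

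Lalba encodes alpha-lactalbumin, the whey protein that makes the galactosyltransferase B4galt1 produce lactose. It was at 0.07 in Wnt3A 1 and -1.12 in Wnt3A 2, against 2.10 in Control 1 and -0.07 in Control 2. Control 1 stood above the other arrays, Wnt3A 2 below them, and the middle arrays were close together. Lalba was lower by 1.54 ± 0.85 log2 units with Wnt3A (SE; limma adjusted p = 0.894) and by 1.68 ± 0.79 in the arrays numbered 2 (limma adjusted p = 0.488).

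Btn1a1 encodes butyrophilin, a membrane protein needed for secretion of milk fat globules, and its 3 probe sets differed in range. The probe set 1419175_a_at was at 0.27 in Wnt3A 1 and -1.50 in Wnt3A 2, against 0.54 in Control 1 and -0.27 in Control 2, so that Wnt3A 2 alone stood far from the rest. Its Wnt3A difference of -0.75 ± 0.67 (SE; limma adjusted p = 0.965) was 0.13 without Wnt3A 2, and its number difference was -1.29 ± 0.44 (limma adjusted p = 0.404). The probe set in the highest band, 1451824_at, was at 0.26 and -0.29 with Wnt3A and at 0.29 and -0.26 in the controls. It hardly differed by treatment (-0.03 ± 0.29), while the arrays numbered 2 were 0.55 ± 0.10 lower (limma adjusted p = 0.261). The probe set 1425754_a_at spanned 0.21 log2 units.

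Csn2 encodes beta-casein, the most used marker of milk gene induction in culture. Its probe set 1420369_a_at was at 0.19 in Wnt3A 1 and -0.28 in Wnt3A 2, against 0.78 in Control 1 and -0.19 in Control 2. The order was that of Csn1s1, over a far smaller range of 1.07 log2 units. Both Csn2 probe sets were read in the lowest level band and that of Csn1s1 in the middle band. The Wnt3A difference was -0.34 ± 0.39 (SE; limma adjusted p = 0.983), and 0.14 without Control 1, and the number difference was -0.72 ± 0.23 (limma adjusted p = 0.380). The other Csn2 probe set, 1420370_s_at, spanned 0.23 log2 units in the same order, and its suffix marks probes that also match other transcripts.

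The remaining 5 genes had narrow ranges over the arrays. Wap encodes whey acidic protein, a major rodent whey protein, and was at 0.04 and -0.04 in the Wnt3A arrays and at 0.04 and -0.06 in the controls. The interval of its Wnt3A difference ran from -0.33 to 0.34 log2 units. Glycam1, a mucin-like protein of milk that is also made by high endothelial venules of lymph nodes, was at 0.03 and -0.13 with Wnt3A and at 0.15 and -0.03 in the controls, a difference of -0.11 ± 0.14 (SE, n = 2 arrays a group). Csn1s2b, an alpha-S2-like casein, was at 0.18 and -0.09 with Wnt3A and at 0.09 and -0.13 in the controls. These 3 genes stayed within 0.30 log2 units over all 4 arrays.

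Csn1s2a, the other alpha-S2-like casein, had 5 probe sets, with ranges of 0.13 to 0.68 log2 units. The widest, 1420633_a_at, was at 0.03 and -0.03 with Wnt3A and at 0.30 and -0.38 in the controls, so both Wnt3A arrays lay between the controls. In 1438694_at and 1455579_at both Wnt3A arrays lay above both controls, by 0.20 ± 0.12 and 0.25 ± 0.16 on average (SE; limma adjusted p = 0.917 and 0.925). Mfge8 encodes lactadherin, which coats milk fat globules and marks dying cells for uptake, and is made by many cell types. It was at 0.02 and -0.27 with Wnt3A and at -0.02 and 0.12 in the controls. Its order over the arrays was not that of Csn1s1, and its Wnt3A difference was -0.18 ± 0.16 (SE; limma adjusted p = 0.964).

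The comparison of Wnt3A with control asks whether milk protein RNA differs when basal cell colonies grow with the ligand. In 0 of the 18 probe sets were both Wnt3A arrays below both controls, where 16.3% of all probe sets were, and in 2, both of Csn1s2a, they were above, where 17.4% of all were. Limma called 0 of the 18, as it called 0% of all probe sets at an adjusted p under 0.05. At an unadjusted p under 0.05 it also called 0 of the 18 in this fit, which leaves the array number out, against 6.22% of all. The median difference was -0.06 log2 units, against 0.01 over all probe sets. This median was 0.03 without Wnt3A 2 and 0.01 without Control 1, but -0.15 without Wnt3A 1 and -0.18 without Control 2. Only the probe sets of Csn1s1 and Lalba and the Csn3 probe set 1419735_at were lower by 1 log2 unit or more, which held for 0.711% of all. Axin2, a standard target of canonical Wnt signalling, was at 1.20 and 0.58 in the Wnt3A arrays and at -0.58 and -1.18 in the controls. An exact permutation test of 2 against 2 arrays cannot give a two-sided p below 0.33.

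Between arrays of the same number, the difference of Wnt3A from control for Csn1s1 was -1.68 log2 units in number 1 and -2.37 in number 2. The same differences were -2.22 and -1.23 for Csn3, -2.03 and -1.06 for Lalba, and -0.27 and -1.24 for Btn1a1 (1419175_a_at). Wnt3A was below control within both numbers in 8 of the 18 probe sets and in 27.8% of all. Each of these differences rests on 1 array a side and was not tested alone.

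The titles number the arrays 1 and 2 in both groups, and the sources used here do not say what the number stands for. In 13 of the 18 probe sets both arrays numbered 2 were below both arrays numbered 1, against 28.3% of all probe sets, and in 0 were they above, against 17.0%. Of the 13, 8 were among the 13 probe sets that spanned less than 1 log2 unit, whose number differences lay between -0.55 and 0.05. Limma called 0 of the 18 at an adjusted p under 0.05, against 0% of all. At an unadjusted p under 0.05, 5 were lower in the arrays numbered 2, against 6.35% of all. The probe sets lower by 1 log2 unit or more were 4 of the 18, against 0.506% of all. The median number difference was -0.19, against -0.04 over all probe sets, and 13 of the 18 differed more by number than by treatment, against 56.4% of all. Probe sets of 1 gene share their target, so these counts are not of independent measurements. Counted by gene, with the probe sets of the highest band averaged, the arrays numbered 2 were both lower in 9 of the 10 genes, Mfge8 being the exception, against 31.0% of all genes. The order Control 1, Wnt3A 1, Control 2, Wnt3A 2 was held by 8 of the 18 probe sets and by 6.94% of all, a range of at least 1 log2 unit by 5 of the 18 and 9.56% of all, and both together by 5 of the 18 and 0.449% of all. The narrowest of these 5 was Csn2 at 1.07, and the next below was Csn1s2a at 0.68. This order was picked out after the values were seen.

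**Figure D2:**
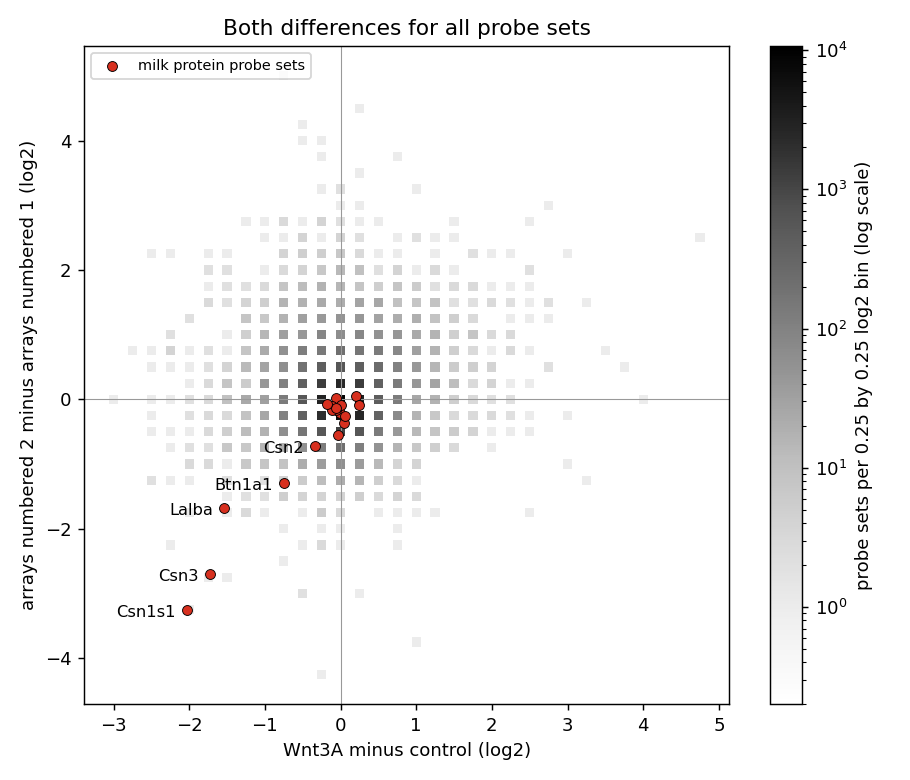
Difference between Wnt3A and control (x axis) against the difference between arrays numbered 2 and arrays numbered 1 (y axis), both in log2 units, with all 45037 probe sets as grey squares shaded by their number per bin and the 18 milk protein probe sets as red points. Csn1s1, Csn3, Lalba, Btn1a1 and Csn2 run down and to the left, each further below 0 by number than by treatment, and the others lie near the centre.

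None of the other measured genes around the caseins on chromosome 5 had a range of 1 log2 unit or more. RefSeq places Prr27, Odam and BC037156 between Csn1s2b and Csn3. On the outside are the sulfotransferase genes Sult1b1, Sult1d1 and Sult1e1 on one side and Cabs1, Smr3a and Smr2 on the other. BC037156 had 0 probe sets with it as the single gene symbol. The other 8 genes had 11 probe sets, with ranges of 0.14 to 0.67 log2 units. The 11 probe sets of the 5 caseins had ranges of 0.13 to 5.29, and 8 of these 11 also spanned under 1 log2 unit. In each set of 11, 8 were read in the lowest level band.

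Regulators of milk genes were described as a list of 20 genes, of which 18 were measured and Prlr was not analysed here. Their median difference was -0.12 with Wnt3A, against 0.00 over all genes. With Wnt3A, 5 had both arrays lower and 2 both higher, against 18.0% and 17.2% of all genes, and limma called 0 (0% of all genes), with 3 at an unadjusted p under 0.05 (7.63% of all genes). Nfib, a transcription factor that binds milk gene promoters, differed by -0.73 ± 0.16 (SE; limma adjusted p = 0.471), and Nr3c1, the glucocorticoid receptor, by -0.61 ± 0.13 (adjusted p = 0.466). The mean of all their probe sets gave -0.49 for Nfib and -0.41 for Nr3c1. Nr3c1 was at -0.25 and -0.28 in the Wnt3A arrays and at 0.42 and 0.28 in the controls, which did not overlap. Stat5a was at -0.06 and -0.16 with Wnt3A and at 0.39 and 0.01 in the controls, a difference of -0.31 ± 0.18, and Stat5b differed by -0.08 ± 0.14. Pgr, the progesterone receptor, differed by -0.60 ± 0.20 and Ghr, the growth hormone receptor, by -0.53 ± 0.22 (limma adjusted p = 0.604 and 0.687).

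By number, 7 regulators were lower in both arrays numbered 2 and 3 higher, against 31.0% and 13.5% of all genes. Limma called 0 of them (0% of all genes), with 4 at an unadjusted p under 0.05 in either direction, where 10.8% of all genes were. The widest was Elf5, the luminal factor that drives alveolar differentiation, at 1.12 in Wnt3A 1 and -1.72 in Wnt3A 2, against 0.45 in Control 1 and -0.45 in Control 2. It was lower by 1.87 ± 0.51 log2 units in the arrays numbered 2 (SE; limma adjusted p = 0.430), and the mean of both its probe sets gave -1.10. Elf5 was lowest in the array where Csn1s1, Csn3, Lalba and Btn1a1 were lowest, but highest in Wnt3A 1 and not in Control 1. Tfap2c was at 0.08 and -0.17 with Wnt3A and at 0.86 and -0.12 in the controls, and Cebpb differed by -0.44 ± 0.11 by number (limma adjusted p = 0.419). Socs3, an inhibitor of JAK and STAT signalling, went the other way, at -0.28 and 0.23 with Wnt3A and at -0.24 and 0.73 in the controls, a number difference of 0.74 ± 0.20 (limma adjusted p = 0.428).

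Other lactation and alveolar secretory genes, a list of 24 with 21 measured, had a median Wnt3A difference of -0.03, with 0 lower in both Wnt3A arrays and 3 higher, against 18.0% and 17.2% of all genes. By number, 12 were lower in both arrays numbered 2 and 4 higher, against 31.0% and 13.5% of all genes, with a median of -0.12 against -0.06. Limma called 0 (0% of all genes), and 9 had an unadjusted p under 0.05 in either direction, against 10.8% of all genes. Lcn2, the iron-scavenging lipocalin, was at 0.35 and -1.79 with Wnt3A and at 0.71 and -0.35 in the controls, the order of Csn1s1. Ltf, lactoferrin, was at 0.15 and -1.26 with Wnt3A and at 0.20 and -0.15 in the controls, in the same order. Thrsp, a factor of milk fat synthesis, was lower by 1.13 ± 0.15 in the arrays numbered 2 (SE; limma adjusted p = 0.336). Rnase1 and Cidea went the other way by number, at 1.33 ± 0.41 and 1.00 ± 0.34 (limma adjusted p = 0.445 and 0.455), as did Wfdc18, a whey acidic protein family member, at 0.84 ± 0.33 (adjusted p = 0.483). Xdh, the xanthine oxidoreductase of the milk fat globule membrane that binds butyrophilin, was at 0.26 and 0.31 with Wnt3A and at -0.26 and -0.55 in the controls, higher by 0.69 ± 0.15 (adjusted p = 0.473).

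Markers of other cell types and states also differed between the arrays, and their part in the milk gene values was not tested. Of 18 basal and myoepithelial markers, 8 were higher in both arrays numbered 2 and 2 lower, against 13.5% and 31.0% of all genes, with a median number difference of 0.34 against -0.06. Control 1, where Csn1s1, Csn2 and Csn3 were highest, was the lowest array for 7 of the 18 and the highest for 2, against 19.9% and 30.7% of all genes. The contractile genes Tagln, Cnn1, Acta2 and Myh11 were among the 7, while Mylk, the myosin light chain kinase, was lowest in Wnt3A 1. Tagln was at -0.08 and 0.37 with Wnt3A and at -4.03 and 0.08 in the controls. Cnn1 was at -0.48 and 0.65 with Wnt3A and at -2.75 and 0.48 in the controls. Krt14 was at -0.15 and 0.32 with Wnt3A and at -0.50 and 0.17 in the controls. With Wnt3A, 4 of the 18 were lower in both arrays and 3 higher, against 18.0% and 17.2% of all genes. Their median Wnt3A difference was 0.26. The lower ones included Krt15, by -2.62 ± 0.34, and the Wnt target and stem cell gene Lgr5, by -1.48 ± 0.26. For Lgr5 the mean of both its probe sets gave -0.81. The oxytocin receptor gene Oxtr was also lower, by -1.39 ± 0.15 (limma adjusted p = 0.268, 0.376 and 0.242 for the 3 genes). Oxtr was one of the genes highest in Control 1. In bulk samples, fewer cells of a type and less RNA per cell cannot be told apart.

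**Figure D3:**
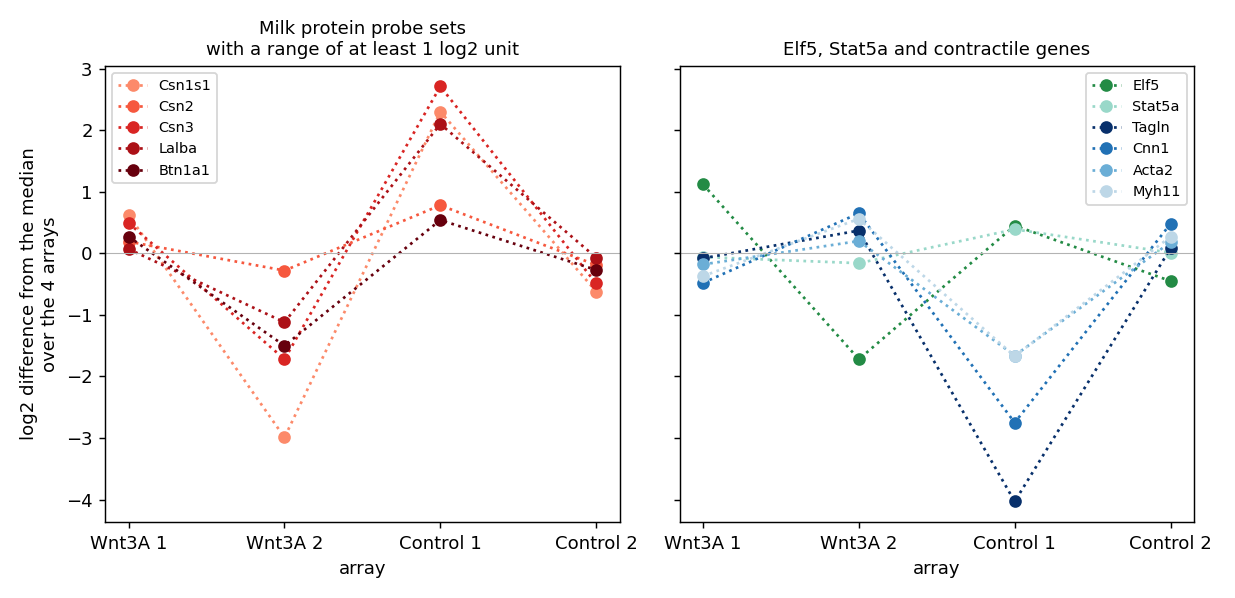
Values of single probe sets or genes in the 4 arrays (x axis) as log2 differences from their median (y axis), with dotted lines that only join the points of 1 gene. On the left the 5 wide milk protein probe sets are highest in Control 1 and lowest in Wnt3A 2, and on the right Elf5 is highest in Wnt3A 1 while Tagln, Cnn1, Acta2 and Myh11 are lowest in Control 1.

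Luminal markers, 16 measured, had a median Wnt3A difference of 0.10 and a median number difference of 0.15. By number, 1 gene was lower in both arrays numbered 2 and 1 higher, against 31.0% and 13.5% of all genes. Control 1 was the lowest array for 7 of the 16 and the highest for 0, against 19.9% and 30.7% of all genes. Krt8, 1 of the 7, was at 0.02 and -0.02 with Wnt3A and at -0.51 and 0.06 in the controls. With Wnt3A, 4 of the 16 were lower in both arrays and 6 higher, against 18.0% and 17.2% of all genes. Among the 4 lower, Foxa1 was at -1.85 and -0.68 with Wnt3A and at 0.68 and 1.47 in the controls. Cited1 was at -1.65 and -0.09 against 0.09 and 3.21, and Krt19 at -0.02 and -1.61 against 0.02 and 1.77. Cldn4, a tight junction gene, was higher with Wnt3A, by 1.14 ± 0.41 (limma adjusted p = 0.643). Squamous differentiation markers had list medians of 0.40 in Wnt3A 1 and 1.57 in Wnt3A 2, against -0.50 and -0.53 in the controls, and their median was highest where Csn1s1 and Csn3 were lowest. Of the 12 measured, 10 were higher in both Wnt3A arrays, against 17.2% of all genes. Krt1, the widest, was at 0.94 and 6.28 with Wnt3A and at -0.94 and -1.28 in the controls. The medians of adipocyte, fibroblast, endothelial and leukocyte markers lay between -0.08 and 0.11 in every array, but single members differed more by number and in both directions. The fibroblast gene Col1a2 was at -0.44 and 0.44 with Wnt3A and at -1.13 and 1.00 in the controls (limma adjusted p by number = 0.412). By number Thy1 differed by 0.55 ± 0.14, Col3a1 by -1.08 ± 0.14 and the adipocyte gene Fabp4 by -0.90 ± 0.18 (limma adjusted p = 0.420, 0.336 and 0.407). Of 10 endothelial and high endothelial venule markers, 6 were lower in both arrays numbered 2, against 31.0% of all genes, with Pecam1 at -0.49 ± 0.12 by number (SE; limma adjusted p = 0.420).

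**Figure D4:**
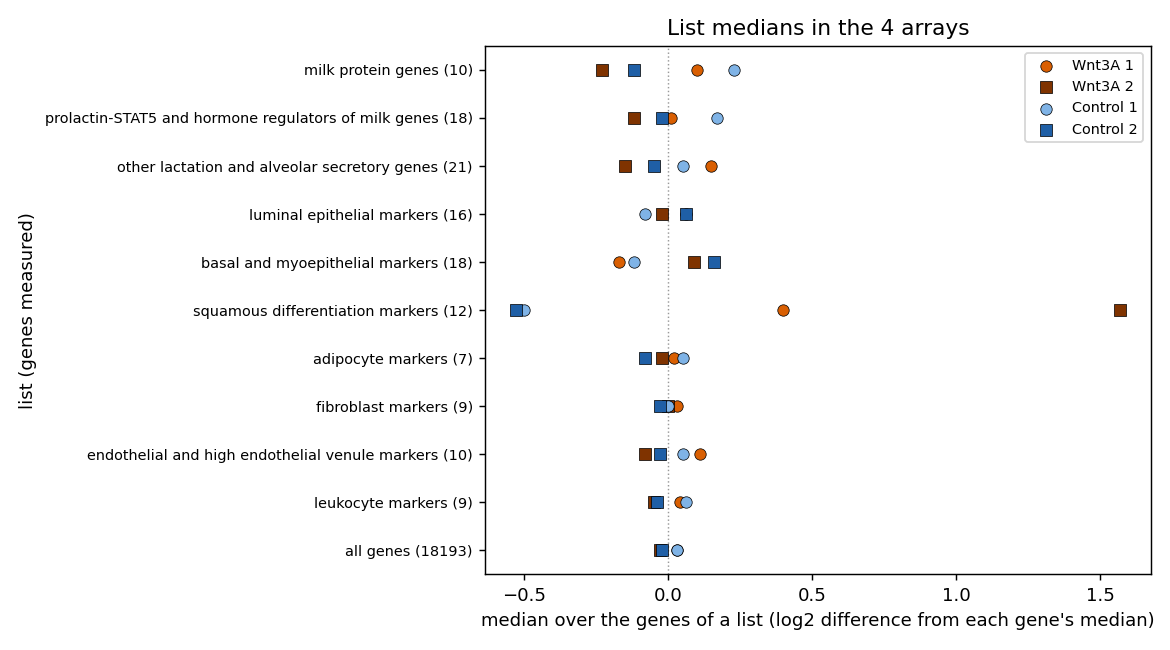
Median over the measured genes of each list in the 4 arrays (x axis, log2 difference from each gene's own median), 1 row per list with the number of genes measured. In the milk protein list both arrays numbered 2 (squares) lie below both numbered 1 (circles). The same holds, over smaller distances, for all genes, at -0.03 and -0.02 against 0.03 and 0.03. It also holds for the regulator, other lactation, adipocyte, endothelial and leukocyte lists. The squamous list has its highest point in Wnt3A 2 at 1.57.

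The probe sets most like Csn1s1 were found by the Euclidean distance over the 4 arrays, among 3550 probe sets of other named genes with a range of at least 1 log2 unit. The nearest was Car9, a carbonic anhydrase induced by low oxygen, at a distance of 1.27 log2 units. It was at 0.53 and -1.75 in the Wnt3A arrays and at 2.54 and -0.53 in the controls. Rbp7, Ecrg4, AI467606 and Rsrp1 followed at distances of 1.64 to 1.77. Csn3 was at a distance of 1.35, so only Car9 was nearer, and Lalba and Btn1a1 (1419175_a_at) were at 2.03 and 2.35. With 4 arrays, such likeness is a description of these samples.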

How the data were processed

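RNA of 4 samples was hybridised to Affymetrix mouse arrays. Per the submitters' processing notes RMA made the deposited log2 values, with no version named. Every one of the 45101 rows had a median of 0 over the 4 arrays, a centring that the sources used here do not mention. It removes levels and leaves differences between arrays unchanged. Column medians lay between -0.016 and 0.02. Without array control rows 45037 probe sets remained, of which 34945 had 1 gene symbol, 932 several and 9160 none, and only the first kind was named.

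Both comparisons were fitted on all 45037 probe sets by lmFit and eBayes of limma 3.58.1 (R 4.3.3). Tests were two-sided, with p-values adjusted by Benjamini-Hochberg and called under 0.05. There was no filter, no covariate, and the fit had 2 residual degrees of freedom. SE is that of this moderated fit. The fit was tested on simulated data. For lists, the probe sets of a gene in its highest level band were averaged (18193 genes). The band is a bound for the lowest array, and its errors can only place a probe set too high. The number of arrays limits precision: the median SE was 0.16 log2 units for Wnt3A.

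The members and lists were chosen with earlier results of these data known. All 10 genes were named. From each list, genes among the 4 largest absolute differences in either comparison could be named, and some of these were, with Stat5a, Stat5b, Elf5, Krt14, Krt8 and Axin2 always. Mylk, the genes around the caseins and the level band examples were added after the data were seen. Alternatives were quantile normalization, array centring, robust eBayes, the lowest band left out, the number or the treatment as a covariate, each array left out, and other gene summaries. Figures were drawn with matplotlib 3.10.9.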

Additional observations from a re-analysis of the deposited data

How the results depend on the processing

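No alternative brought any probe set, milk protein or other, past an adjusted p of 0.05 in either comparison. Of 306 recomputed differences of single milk protein probe sets, 286 kept their direction, and the 20 that turned did so when an array was left out, where 1 group or number keeps 1 array whose spread is assumed to be that of the others. For Wnt3A, the lowest and highest values over the 4 omissions were -0.30 and 0.38 (Csn1s2a 1420633_a_at), -0.16 and 0.14 (Csn1s2a 1436170_a_at), -0.08 and 0.19 (Csn1s2b), -0.83 and 0.14 (Csn2 1420369_a_at), -0.15 and 0.03 (Csn2 1420370_s_at) and -0.04 and 0.06 (Wap). For Btn1a1 they were -1.64 and 0.13 (1419175_a_at), -0.17 and 0.04 (1425754_a_at) and -0.30 and 0.25 (1451824_at). By number they were -0.05 and 0.08 (Csn1s2a 1436488_at), -0.07 and 0.18 (Csn1s2a 1438694_at), -0.32 and 0.14 (Csn1s2a 1455579_at), -0.21 and 0.01 (Csn3 1451851_a_at) and -0.27 and 0.12 (Mfge8). Csn1s1 kept its direction, between -3.83 and -0.22 for Wnt3A and between -4.45 and -2.08 by number, as did Csn3 1419735_at (-3.33 to -0.13 and -3.82 to -1.59) and Lalba (-2.63 to -0.46 and -2.69 to -0.66). The median number difference of the milk protein probe sets, -0.19, was -0.55 over the 9 probe sets above the lowest level band and -0.35 with 1 value per gene by either summary. The mean of all probe sets of a gene kept 35 of 40 list counts within 1.5 times. Arrays of the same number deviated together (r = 0.53 across 45037 probe sets), but with 2 pairs and no label for what the number means, pairing is not established. With the replicate number as a block, differences are the same and 4882 probe sets had an unadjusted p under 0.05 for Wnt3A, against 2801 without it. In that limma fit, with 1 residual degree of freedom, the unadjusted p = 0.00165 and adjusted p = 0.370 for Csn1s1. The same limma fit gave unadjusted p = 0.00697 and adjusted p = 0.384 for Csn3 1419735_at. For Lalba it gave unadjusted p = 0.00943 and adjusted p = 0.395. With the block the SE was 0.22 for Csn1s1, 0.29 for Csn3 1419735_at and 0.29 for Lalba. Without the block these SEs were 1.59, 1.33 and 0.85.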
